A study of Mus musculus with 79 samples.

Results

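The genes described here encode the parts of the mitochondrial respiratory chain and ATP synthase that are read from nuclear DNA. They were taken from the deposited expression table by name: symbols that start with Ndufa, Ndufb, Ndufc, Ndufs, Ndufv, Uqcr, Atp5, or Cox followed by a digit, without pseudogene names that hold -ps. The rule found 98 genes among the 35230 in the table, on 99 rows. A mean of at least 1 RPKM (reads scaled by transcript length and library depth) in at least 1 of the 28 sample groups was reached by 97 of the 98, and these 97 are called members below. All 97 passed the filter on low values. Cox8b, a muscle form of a cytochrome c oxidase subunit, stayed under that level, with a highest group mean of 0.285 RPKM. Atp5o occupied 2 rows under 1 identifier, and the row with the higher mean was used.

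Mitochondria pass electrons from NADH through complex I, ubiquinone, complex III and cytochrome c to complex IV, which reduces oxygen, and the proton gradient made on the way drives ATP synthase, complex V. Most subunits are encoded in the nucleus and imported, while a small set of core subunits is encoded by mitochondrial DNA, so that each complex needs both genomes and dedicated assembly factors. Naive embryonic stem cells are known to respire actively, and the primed state that follows in the epiblast is known for a shift towards glycolysis. The members fall into complex I with 44 genes (7 core, 29 accessory, 8 assembly factors), complex III with 8 (3 core, 5 accessory), complex IV with 28 (11 common subunits, 10 assembly factors, 7 tissue isoforms) and complex V with 17 (5 core, 11 accessory, 1 assembly factor). The core subunits of complex IV are read from mitochondrial DNA and are therefore not among them. The 71 core and common accessory genes that every cell uses are called ubiquitous subunits here.

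RNA was sequenced from 79 libraries of mouse embryonic stem cells (ESC) and their progeny. There were 4 genotypes of 1 line each: a parental line TET_WT, a TET1/2/3_KO line without the 3 enzymes that oxidise 5-methylcytosine, a second parental line DNMT_WT, and a DNMT1/3a/3b_KO line without the 3 DNA methyltransferases (TET WT, TET KO, DNMT WT and DNMT KO below). Each line was sampled as ESC in 2i/Lif at day 0 (D0), as epiblast-like cells (EpiLC) at D1 and D2, and as embryoid bodies (EB), aggregates that differentiate into several germ layers, at D2, D4, D6 and D8. Replication was 3 libraries in 23 groups and 2 in the other 5. The 2 parental lines are different lines, each knockout is a single line, and the labels do not say whether replicates came from separate cultures, so the p-values measure the spread between these libraries, which may be technical. Depth was 7.77 to 13.89 M reads per library (median 11.16 M). Dnmt1 stood at 3.63 to 6.49 RPKM in the DNMT KO libraries against 39.4 to 63.2 in DNMT WT. Tet1 had a median of 5.18 RPKM in TET KO and 12.1 in TET WT, whereas Tet2 (2.95 and 3.05) and Tet3 (1.24 and 1.2) were not lower in the TET KO libraries. Which exons were deleted is not given in the sources used here, so these levels do not test the TET labels.

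Promoters are shown for the genes on which the results below turn, because the series concerns DNA methylation and methylation falls on CG dinucleotides. RefSeq starts on GRCm38.p6 were matched for 79 of the 97 members. In the window from 250 bases before to 50 bases after the start, ubiquitous subunits had a median of 19.5 CG (range 5 to 43, n = 60), assembly factors 23.5 (n = 16) and the tissue isoforms 10 (range 7 to 10, n = 3), against a median of 8 over 27025 genes. The first 3 sequences are the 250 bases before the start, 5′ to 3′ on the gene's strand, with each CG in capitals: Cox7b2 (chr5:71548206-71548455, minus strand, 9 CG), the tissue isoform with the largest difference between DNMT KO and DNMT WT. Cox7a1 (chr7:30183921-30184170, plus strand, 4 CG) is the muscle isoform that fell most, and Cox5a (chr9:57520982-57521231, plus strand, 26 CG) the common complex IV subunit that fell most in TET WT.
Cox7b2: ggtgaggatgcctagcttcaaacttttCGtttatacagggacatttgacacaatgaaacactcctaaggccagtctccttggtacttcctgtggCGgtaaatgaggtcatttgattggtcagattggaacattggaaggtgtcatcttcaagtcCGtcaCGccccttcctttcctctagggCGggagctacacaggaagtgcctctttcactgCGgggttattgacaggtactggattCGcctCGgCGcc
Cox7a1: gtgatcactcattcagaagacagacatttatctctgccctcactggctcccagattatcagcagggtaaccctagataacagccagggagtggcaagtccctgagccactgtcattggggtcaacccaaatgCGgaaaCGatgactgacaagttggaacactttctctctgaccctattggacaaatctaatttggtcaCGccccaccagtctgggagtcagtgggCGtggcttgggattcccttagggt
Cox5a: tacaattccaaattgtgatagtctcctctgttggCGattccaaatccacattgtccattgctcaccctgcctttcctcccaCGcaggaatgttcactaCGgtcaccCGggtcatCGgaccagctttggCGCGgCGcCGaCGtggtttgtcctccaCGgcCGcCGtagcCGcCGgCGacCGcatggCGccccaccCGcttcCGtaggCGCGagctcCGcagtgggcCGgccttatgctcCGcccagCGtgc

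Factors known to act on respiratory genes were searched as motifs on both strands of the same windows. GCGCA and GCGC with 1 free base between them, the core of the nuclear respiratory factor NRF1 motif, was found in 17 of 79 members (21.5%). Of all 27025 genes with a window, 5.19% held it. CCGGAAG, the ETS motif read by GABPA, was found in 21 members (26.6%) and 9.93% of all these genes. AAGATGGCG, a YY1 motif, was found in 9 members (11.4%) against 1.64%, and TGACGTCA, the cyclic AMP response element, in 4 members (5.06%) against 2.03%. At least 1 of the 4 motifs was present in 43 members. Each motif holds a CG, and the windows of ubiquitous subunits are richer in CG than those of all genes (medians 19.5 and 8). The part of CG content in the higher shares was not tested. Ndufb4, an accessory subunit of complex I (chr16:37654369-37654618, minus strand), held 3 matches to the NRF1 letters before its start, and Cox6b1, a common complex IV subunit (chr7:30626115-30626364, minus strand), held 1 ETS match, both shown with the matches in capitals. These matches are descriptions of letters, and no binding was measured.
Ndufb4: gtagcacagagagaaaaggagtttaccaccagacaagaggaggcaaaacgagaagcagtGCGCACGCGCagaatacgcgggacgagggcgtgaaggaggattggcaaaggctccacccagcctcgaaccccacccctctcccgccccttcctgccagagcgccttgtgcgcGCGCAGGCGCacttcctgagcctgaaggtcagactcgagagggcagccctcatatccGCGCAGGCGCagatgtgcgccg
Cox6b1: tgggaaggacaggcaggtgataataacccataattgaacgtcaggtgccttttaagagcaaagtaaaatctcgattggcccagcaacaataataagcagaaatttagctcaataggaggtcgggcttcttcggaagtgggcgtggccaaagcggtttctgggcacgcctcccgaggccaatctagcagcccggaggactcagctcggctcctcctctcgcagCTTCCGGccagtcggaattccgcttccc

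In undifferentiated ESC the subunits of all 4 complexes were among well-expressed genes, with a spread of levels within each complex. At ESC D0 of TET WT, the 36 complex I subunits had a median of 42.2 RPKM, and Ndufb2, an accessory subunit, was the lowest at 6.32. Complex III had a median of 82.5 RPKM (8 genes), complex IV 123.6 (11 genes, Cox6c 46.8 to Cox8a 280.0) and complex V 71.6 (16 genes, Atp5l 9.89 to Atp5b 495.2). The medians in DNMT WT were 42.0, 75.4, 98.4 and 52.2 RPKM for complexes I, III, IV and V. Assembly factors, which are needed only to build the complexes, were lower, with medians of 9.03 RPKM in TET WT and 8.51 in DNMT WT. The tissue isoforms of complex IV had medians of 1.04 and 0.26 RPKM, but Cox6b2, known from testis, reached a mean of 25.4 RPKM in TET WT.

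Across the embryoid body course the members as a group declined relative to the rest of the transcriptome, and they did so in all 4 lines. For each library, the median log2 change of the 97 members from the mean of the line's ESC D0 libraries was set against the median over all 15267 genes tested. In TET WT this difference was -0.49 to -0.33 at EB D2, -0.66 to -0.44 at D4, -0.56 to -0.50 at D6 and -0.65 to -0.61 at D8. In DNMT WT it was -0.37 to -0.30 at EB D2, -0.40 to -0.31 at D4, -0.49 to -0.44 at D6 and -0.58 to -0.57 at D8. TET KO ended lowest, at -0.91 to -0.75, and DNMT KO at -0.53 to -0.46. All EB libraries except 1 lay below 0: the 2 DNMT KO libraries at EB D2 stood apart from each other, at -0.44 and 0.13. The -0.66 of TET WT at EB D4 belonged to replicate 2, the shallowest library at 7.77 M reads. Its median over all genes was -0.31, where replicates 1 and 3 had 0.035 and 0.034. In these bulk samples, fewer cells that express a gene and less of its RNA per cell cannot be told apart.

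**Figure D1:**
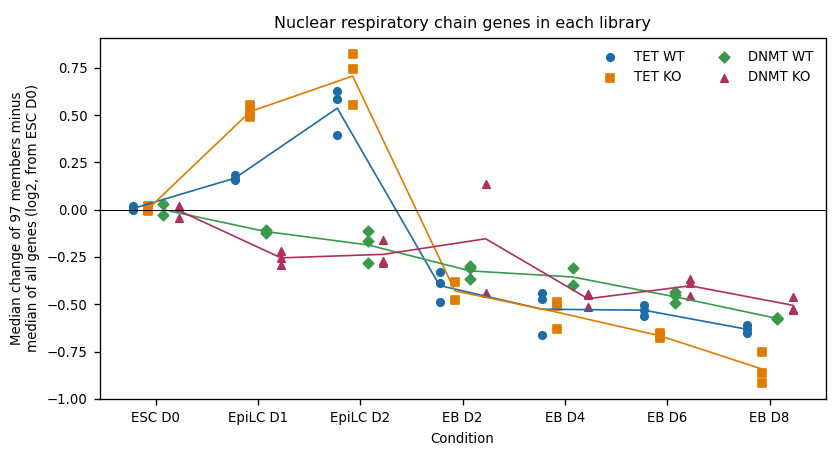
Each point is 1 library; the vertical axis is the median log2 change of the 97 members from the mean of the same line's ESC D0 libraries minus the median of all genes tested, and the horizontal axis is the condition. Lines join group means. The EpiLC D2 libraries of TET WT (0.39 to 0.63) and TET KO (0.55 to 0.82) lie above 0 and those of DNMT WT (-0.28 to -0.11) and DNMT KO (-0.28 to -0.16) below it, while at EB D8 the libraries of all 4 lines are below 0.

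At EB D8 the fall was broad and mostly moderate in size. A gene is said below to have passed when its adjusted p in limma was under 0.05, and to be called when it also changed by at least 1 on the log2 scale. In TET WT, 70 of 97 members (72.2%) passed lower and 8 passed higher, against 35.7% of all genes passing lower. The share of all genes passing higher at any size is not given here. Called lower were 17 members (17.5%) against 12.4% of all genes, and called higher 1 member against 20.3%. DNMT WT had 70 members passing lower (34.7% of all genes), 16 called lower (14.4% of all genes) and 6 called higher (23.3%). In TET KO, 86 members (88.7%) passed lower against 33.1% of all genes, 32 (33.0%) were called lower against 9.67%, and 0 were called higher against 18.4%. In DNMT KO, 70 members passed lower against 30.1% of all genes, 6 were called lower against 6.92% and 4 higher against 16.8%. The shares called lower in TET WT, DNMT WT and DNMT KO were therefore near the background. The differences from it lay in the number of smaller decreases and in the shares called higher, which were below it. Well-expressed genes pass more easily, so the 67 members with a mean of at least 15.5 RPKM were also set beside the 3068 other genes at that level. Their medians were -0.66 against -0.29 in TET WT, -0.84 against -0.27 in TET KO, -0.51 against -0.22 in DNMT WT and -0.43 against -0.15 in DNMT KO. When each library was centred on its median, which lowers the median of all genes by 0.26 to 0.31 at EB D8, the split of calls became 3 higher and 31 lower in DNMT WT and 3 higher and 17 lower in DNMT KO. It was 3 higher and 3 lower in DNMT KO under quantile normalization. The shares of all genes called under these settings are not given here, so these splits are not read as a result about the members.

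**Figure D2:**
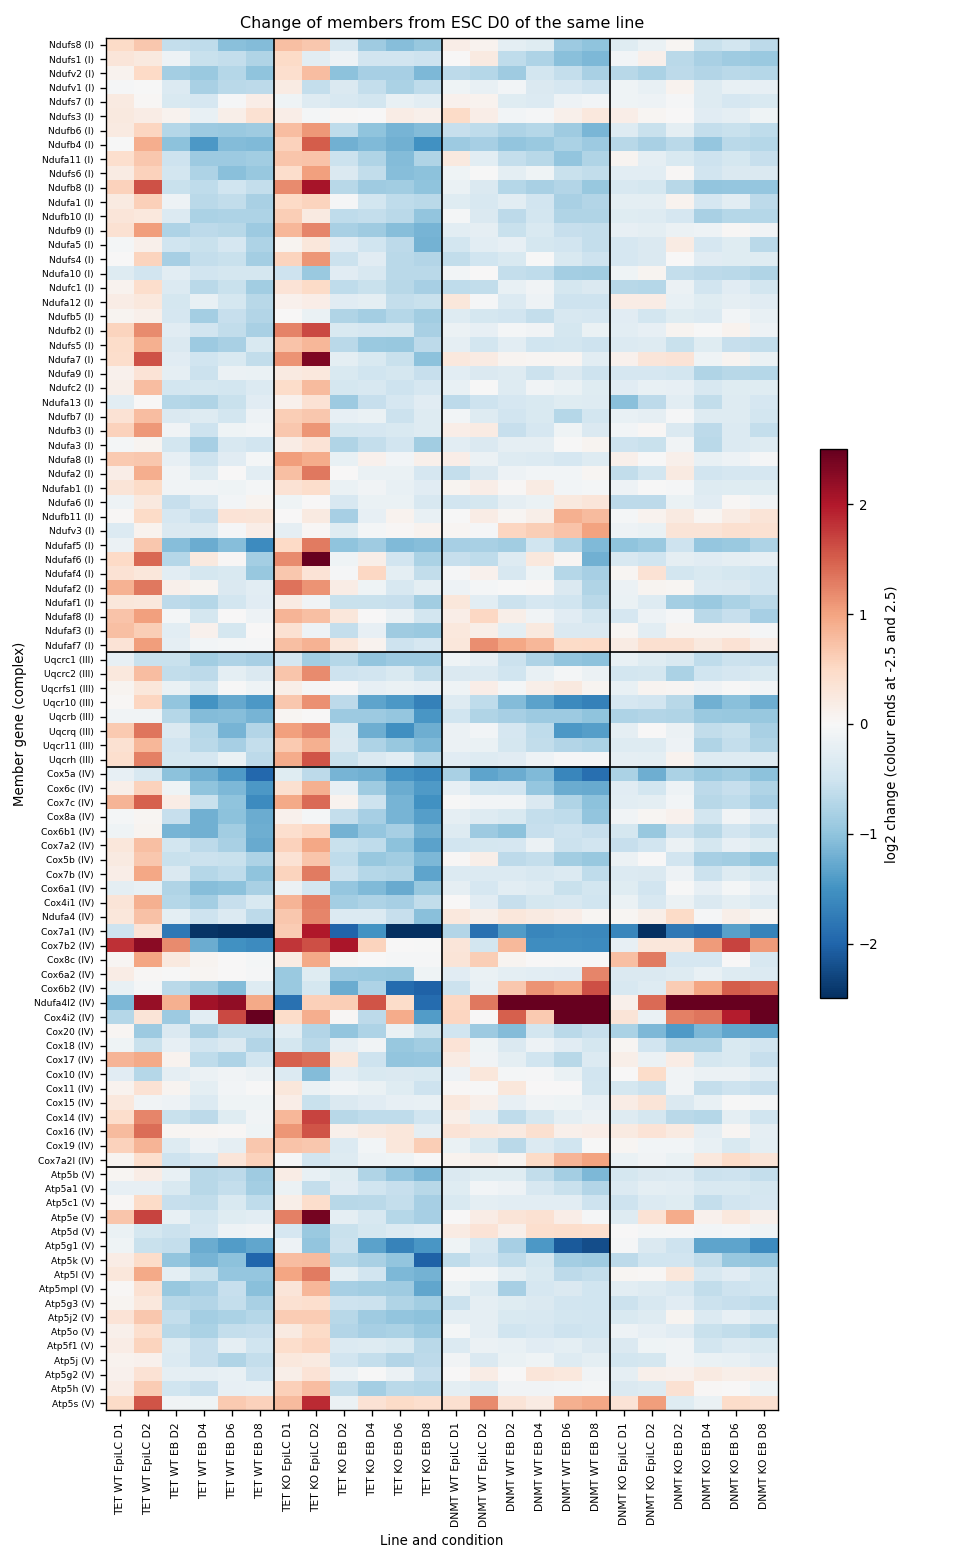
Rows are members with their complex, 1 member not being shown, ordered within a complex by role and mean change; columns are the 4 lines and 6 conditions, and colour is the log2 change from ESC D0 of the same line (blue lower, red higher, colours end at -2.5 and 2.5). Most rows of the EB columns are blue in every line, the EpiLC D2 columns are red in the TET lines, and the changes beyond the colour range belong to the tissue isoforms Cox7a1, Cox4i2 and Ndufa4l2 and, in TET KO EpiLC D2, to Ndufaf6.

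Complex I, the NADH dehydrogenase, fell mainly by small steps. At EB D8 its accessory subunits had a median log2 change of -0.60 in TET WT, where 22 of 29 passed lower, and of -0.47 in DNMT WT, where again 22 did. Of the 7 core subunits, which carry the flavin and iron-sulfur clusters, 5 passed lower in each parental line. Ndufs8, a core subunit with iron-sulfur clusters, stood at 53.6, 57.7 and 57.3 RPKM in the TET WT ESC libraries and at 26.4, 25.4 and 26.5 at EB D8. In DNMT WT it went from 39.0 and 47.1 RPKM to 21.8, 20.9 and 20.6, and in neither line did ESC and EB libraries overlap. Ndufs1, the largest core subunit, fell by 0.76 in TET WT (means 22.5 and 13.2 RPKM, adjusted p = 2.72e-13), by 0.51 in TET KO, by 1.13 in DNMT WT (30.6 and 13.7 RPKM, adjusted p = 2.1e-15) and by 0.92 in DNMT KO. Ndufv1, which binds the flavin that accepts electrons from NADH, changed less, by -0.66, -0.63, -0.51 and -0.21 in TET WT, TET KO, DNMT WT and DNMT KO.

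Complex III, which carries electrons from ubiquinone to cytochrome c, contained both one of the most reduced and one of the least changed members. Uqcr10, a small accessory subunit, stood at 193.6, 200.5 and 199.0 RPKM in TET WT ESC and at 72.7, 68.0 and 78.2 at EB D8 (log2 change -1.43, SE 0.07, limma adjusted p = 6.39e-14). DNMT WT went from 180.7 and 180.9 to 55.6, 61.0 and 51.1 RPKM. The changes were -1.69 in TET KO and -1.22 in DNMT KO, and no EB library reached the ESC range in any line. Uqcrc1, a core subunit, fell by 0.83 in TET WT and by 1.02 in DNMT WT. Uqcrfs1, the Rieske iron-sulfur protein of the catalytic centre, had means of 82.3 and 76.1 RPKM in TET WT (-0.11, adjusted p = 0.0513) and changes of 0.07 in DNMT WT (adjusted p = 0.299) and -0.06 in DNMT KO (adjusted p = 0.311). It passed in TET KO, where it fell by 0.20 (adjusted p = 0.00128).

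Complex IV, cytochrome c oxidase, showed the lowest class median of the ubiquitous subunits in TET WT. Its 11 common subunits all passed lower at EB D8, 6 of them called, with a median of -1.23. In DNMT WT 10 of the 11 passed lower with a median of -0.63. Cox5a, a common subunit on the matrix side, stood at 142.4, 142.9 and 135.1 RPKM in TET WT ESC and at 36.2, 36.3 and 34.4 at EB D8 (-1.96, SE 0.04, limma adjusted p = 2.04e-19). The DNMT WT libraries went from 126.3 and 134.9 to 34.3, 33.9 and 36.6 RPKM (-1.89, SE 0.05, adjusted p = 2.57e-18). DNMT KO had more of it left at EB D8: 123.3, 118.6 and 120.2 RPKM became 55.6, 62.7 and 59.7 (-1.02, SE 0.04, adjusted p = 1.85e-14). In TET KO it fell by 1.57. Cox8a, the common form of another subunit, changed by -1.24 in TET WT, -1.37 in TET KO, -0.98 in DNMT WT and -0.28 in DNMT KO. Cox4i1, which carries an ATP-binding regulatory site, changed by only -0.38, -0.62, -0.50 and -0.34 in the same order. Ndufa4, an electron chain subunit now assigned to complex IV, fell by 0.65 in TET WT and by 1.05 in TET KO, while its values of 0.04 and 0.05 in DNMT WT and DNMT KO did not pass.

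The ATP synthase members had a median change of -0.63 in TET WT and -0.49 in DNMT WT. Atp5b, the catalytic beta subunit and the most abundant member at ESC D0, stood at 491.3, 501.3 and 493.2 RPKM in TET WT ESC and at 266.2, 265.4 and 266.4 at EB D8 (-0.90, SE 0.03, limma adjusted p = 1.33e-16). In DNMT WT it went from 528.4 and 557.6 to 250.1, 242.2 and 252.0 RPKM (-1.13, adjusted p = 2.25e-17). DNMT KO went from 579.4, 579.3 and 580.8 to 375.5, 380.9 and 401.7 RPKM (-0.59, adjusted p = 3.3e-13), so its EB D8 libraries lay above those of both parental lines. Atp5a1, the alpha subunit, fell by 0.85 in TET WT (means 432.7 and 240.7 RPKM) and by 0.74 in DNMT WT. Atp5k, the e subunit of the membrane part, fell by 1.99 in TET WT (114.5 to 28.6 RPKM) and by 0.89 in DNMT WT (50.6 to 27.3 RPKM). The difference between these responses was called (1.10). Atp5k was 1 of 6 members called higher in the DNMT WT than in the TET WT response at EB D8 (5.12% of all genes were), and the other 5 were tissue isoforms.

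Subunit c, which forms the rotor ring, is encoded by Atp5g1, Atp5g2 and Atp5g3, whose mature proteins are the same and whose import sequences differ. Only Atp5g1 was called lower in all 4 lines among these 3 genes. It stood at 25.3, 24.1 and 25.4 RPKM in TET WT ESC and 9.92, 9.70 and 10.1 at EB D8 (-1.29, limma adjusted p = 8.55e-12), and in DNMT WT went from 39.0 and 38.8 to 8.90, 8.27 and 6.78 RPKM (-2.22, adjusted p = 6.44e-15). The changes in TET KO and DNMT KO were -1.46 and -1.58. Its share of the summed RPKM of the 3 genes went from 9.95% to 6.80% in TET WT, 9.5% to 5.95% in TET KO, 16.9% to 5.11% in DNMT WT and 15.5% to 7.17% in DNMT KO. The share of Atp5g2 was higher at EB D8 in each line, at 27.7% against 23.2% in TET WT and 32.2% against 23.4% in DNMT WT. These genes have closely related copies, and how the counting treated reads that match more than 1 place is not given in the sources used here, so the split between them is uncertain.

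At EB D8, 89 members (91.8%) passed lower in at least 1 line, against 50.3% of all genes tested, and 58 (59.8%) in all 4, against 17.1%. The 58 were 10 of 11 common complex IV subunits, 9 of 11 accessory complex V subunits, 18 of 29 accessory and 5 of 7 core complex I subunits, but 3 of 8 complex I and 3 of 10 complex IV assembly factors. Called lower in all 4 lines were Atp5g1, Cox5a, Cox7a1 and Uqcr10 (4.12% of members and 2.84% of all genes). The parental lines shared 10 calls (10.3%, against 9.29% of all genes), of 17 in TET WT and 16 in DNMT WT: these 4 with Cox6c, Cox7b2, Cox7c, Ndufaf5, Ndufs8 and Uqcrb. Over the 16 comparisons of an EB day with ESC D0, 20 members (20.6%) passed lower in every one, 57 (58.8%) in at least 12 and 3 (3.09%) in none. The shares of all genes were 5.58%, 15.8% and 33.2%. The shares called lower were thus near the background, and those passing lower at any size were above it.

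**Figure D3:**
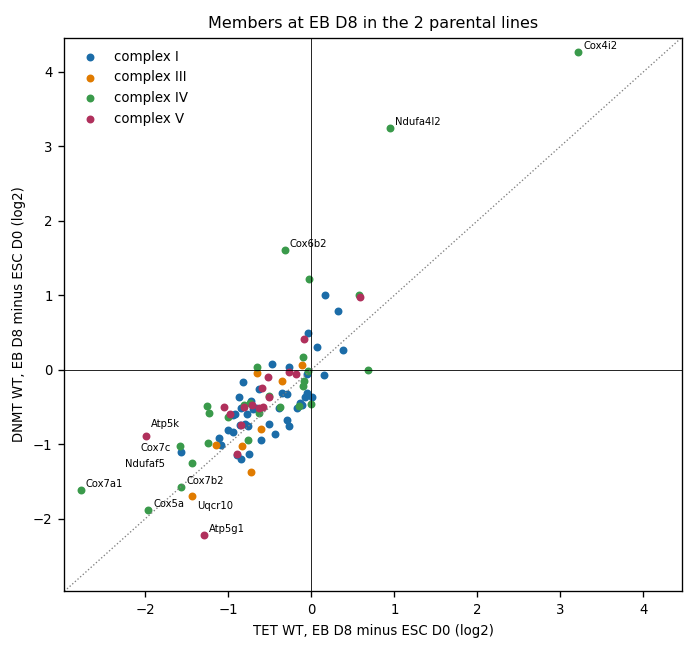
Each point is 1 member; the horizontal axis is its log2 change from ESC D0 to EB D8 in TET WT and the vertical axis that in DNMT WT, with colour for the complex, a dotted line of equal change and names for the members with the largest changes. Most points lie in the lower left part, Cox5a, Atp5g1 and Uqcr10 among the lowest; the heights of Cox4i2 and Ndufa4l2 depend on the pseudocount because they had at most 1 read per DNMT WT ESC library.

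A few members went the other way. Atp5s, also named coupling factor B and counted here as an assembly factor, passed higher in all 4 lines, with changes of 0.59 in TET WT, 0.41 in TET KO, 0.97 in DNMT WT and 0.41 in DNMT KO. Cox7a2l, a Cox7a-related protein that helps to join complexes III and IV into supercomplexes, stood at 48.8, 52.3 and 53.3 RPKM in TET WT ESC and 77.3, 77.8 and 76.1 at EB D8 (0.58, limma adjusted p = 7.21e-09). In DNMT WT it went from 38.9 and 41.5 to 82.7, 88.9 and 72.0 RPKM (1.0, SE 0.06), a value at the threshold whose call was lost with a pseudocount of 1 or with centring (0.69). In TET KO it was -0.01 (adjusted p = 0.846). Ndufb11, an accessory subunit of the membrane arm, rose by 0.32 in TET WT and by 0.78 in DNMT WT, and fell by 0.18 in TET KO. Ndufv3, an accessory complex I subunit beside the flavin site, rose by 1.0 in DNMT WT (adjusted p = 6.99e-10), a call that was lost with a pseudocount of 1 or with centring, and had 0.16 in TET WT (adjusted p = 0.0527). Ndufs3, a core complex I subunit, rose by 0.38 in TET WT and by 0.26 in DNMT WT, against 0.14 and -0.11 in the knockouts, which did not pass.

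The largest changes among the members were those of tissue isoforms, genes that stand in for a common complex IV subunit in particular tissues. Cox4i2 (ENSMUSG00000009876, chr2:152754173-152765037), the lung and hypoxia-associated form of subunit 4, had 1.46, 0.63 and 1.04 RPKM in TET WT ESC, 3.97, 4.09 and 4.67 at EB D6, and 13, 13.3 and 14.2 at EB D8. DNMT WT had 0.11 and 0.10 RPKM in ESC, from at most 1 read per library, and 12.8, 10.3 and 10.2 at EB D8. DNMT KO reached 5.84, 4.66 and 5.98 RPKM. TET KO resembled TET WT at EB D6, at 3.05, 4.18 and 4.24 RPKM, yet had 0.96, 0.10 and 0.22 RPKM at EB D8, from 1 to 9 reads per library against 126 to 137 in TET WT. At EB D8 the TET KO level of Cox4i2 was called lower than that of its parent (log2 difference -4.03, SE 0.24, adjusted p = 3.33e-08). The TET KO response from ESC D0 also differed from the TET WT response, by -4.62. As a share of the summed RPKM of Cox4i1 and Cox4i2, Cox4i2 made up 6.06% in TET WT, 5.49% in DNMT WT, 2.32% in DNMT KO and 0.281% in TET KO at EB D8.

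Ndufa4l2 (ENSMUSG00000040280, chr10:127514967-127517154), a paralog of Ndufa4 that is known as a target of hypoxia-inducible factor, followed a different course. It had 0.57, 0.63 and 1.12 RPKM in TET WT ESC, 4.37, 3.77 and 6.85 at EB D4 and 2.08, 1.89 and 1.78 at EB D8. The TET KO ESC libraries disagreed, at 0.75, 5.33 and 6.55 RPKM, and the EB D8 libraries had 0.54, 0.37 and 0.55. DNMT WT and DNMT KO both had 0 or 1 read per ESC library and met at EB D4, with 12.4 and 12.5 against 12.3, 12.3 and 11.4 RPKM. They parted afterwards: DNMT WT had 15.4, 12.9 and 10.6 RPKM at EB D6 and 4.05, 5.59 and 5.36 at EB D8, while DNMT KO had 25.4, 34.6 and 28.2 and then 32.8, 23.1 and 24.4. The difference at EB D8 was called (2.30, limma adjusted p = 1.28e-08), as was the difference of the responses (2.29). Ndufa4l2 made up 29.3% of the summed RPKM of Ndufa4l2 and Ndufa4 in DNMT KO at EB D8, 7.99% in DNMT WT, 2.54% in TET WT and 0.931% in TET KO.

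Cox7b2 (ENSMUSG00000049387, chr5:71442824-71548205), the testis form of subunit 7b whose promoter is printed above, was no longer detected at EB D8 in either parental line and was present in DNMT KO. It had 1.21 and 1.60 RPKM in DNMT WT ESC and 3.68, 4.17 and 4.88 in DNMT KO. At EB D4 DNMT WT had 0 reads in both libraries and DNMT KO 9.12, 10.7 and 8.29 RPKM, at least 19.4-fold higher against a floor of 3 reads per library. At EB D6 DNMT KO had 13.6, 15 and 15.3 RPKM and DNMT WT 1 read in all. At EB D8 DNMT KO had 9.16, 7.94 and 11.1 RPKM, from 48 to 69 reads per library, against 0 reads in DNMT WT, at least 20.4-fold higher. It then made up 11.7% of the summed RPKM of Cox7b2 and Cox7b in DNMT KO. In the TET pair the difference lay earlier. TET KO had 0 reads in its ESC libraries where TET WT had 1.80, 0.92 and 1.51 RPKM, at least 2.84-fold lower. At EpiLC D2, TET WT reached 10.2, 10.1 and 5.85 RPKM and TET KO 1.18, 1.75 and 1.55 (-2.18, limma adjusted p = 0.00046).

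Cox7a1, the heart and muscle form of subunit 7a, was lower at EB D8 than in ESC in every line. It had 21.5, 17.6 and 24.1 RPKM in TET WT ESC and 1.98, 3.01 and 3.04 at EB D8 (-2.77), and it was called lower in TET KO (-2.65), DNMT WT (-1.61) and DNMT KO (-1.67). At EpiLC D2 it had 85.7, 65.9 and 86.3 RPKM in TET KO, 29.0, 20.2 and 32.5 in TET WT, 2.08, 2.07 and 2.79 in DNMT WT, and 1.36, 2.28 and 4.47 in DNMT KO. Only the DNMT WT and DNMT KO libraries overlapped there. From ESC D0 to EpiLC D2 it rose by 2.01 in TET KO, fell by 1.87 in DNMT WT and fell by 2.70 in DNMT KO, with 0.35 in TET WT (adjusted p = 0.259). TET KO differed from TET WT at that point by 1.54 (limma adjusted p = 0.00108). Cox6b2, the testis form of subunit 6b, stood at 22.8, 26.2 and 27.2 RPKM in TET WT ESC and 22.0, 20.8 and 18.0 at EB D8. In TET KO it fell from 42.9, 40.4 and 36.8 to 9.92, 9.10 and 9.51 RPKM (-2.02), while in DNMT WT it rose from 5.85 and 6.69 to 19.0, 18.2 and 23.2 (1.60). Cox6a2, the muscle form of subunit 6a, was near the floor almost everywhere; at EB D8 DNMT WT had 0.97, 1.17 and 1.60 RPKM and DNMT KO 0.13, 0.12 and 0.12. Cox8c, a testis form, had its highest group mean in DNMT KO at EpiLC D2, with 2.39, 1.71 and 1.22 RPKM.

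**Figure D4:**
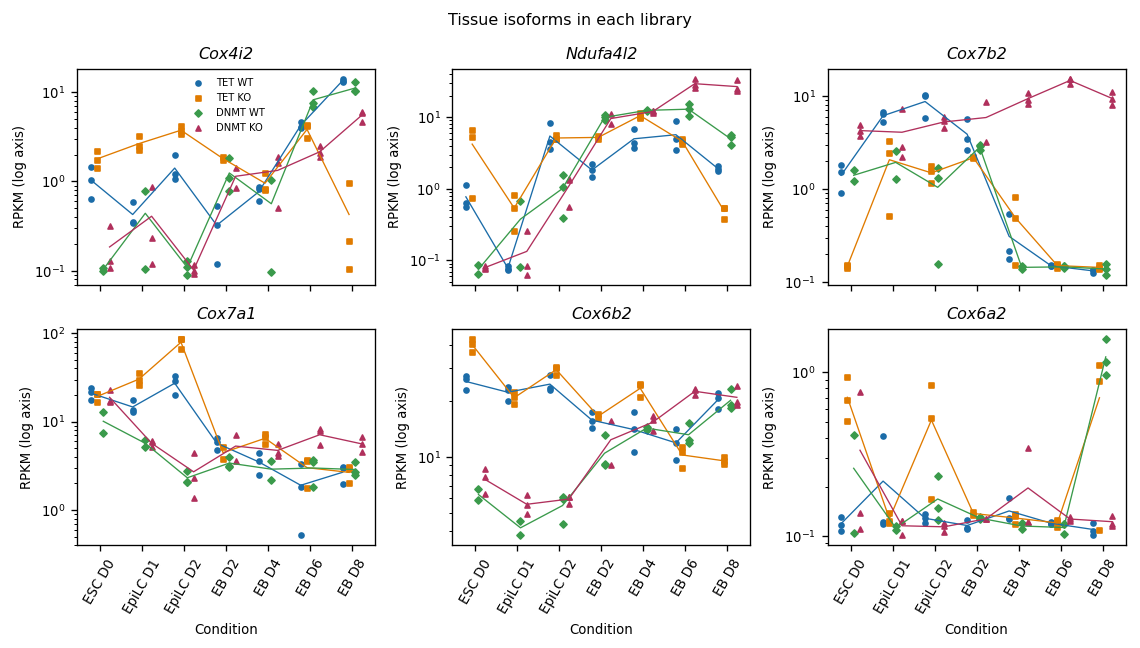
RPKM (log axis) of 6 tissue isoforms in each of the 79 libraries by condition, with points for libraries and lines through group means. At EB D8 Cox4i2 is near 13 RPKM in TET WT and at or under 0.96 in TET KO. Cox7b2 is then between 7.94 and 11.1 RPKM in DNMT KO and at the level of at most 1 read in the other lines. The lowest points of the Cox4i2, Ndufa4l2, Cox7b2 and Cox6a2 panels stand for 0 or 1 read. Every Cox7a1 point stands for at least 3 reads and every Cox6b2 point for at least 48.

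In EpiLC the lines did not behave alike. At EpiLC D2 of TET WT, 68 of 97 members (70.1%) passed higher against 31.7% of all genes, 18 (18.6%) were called higher against 11.9% and 0 were called lower against 15.8%. TET KO had 63 members (64.9%) passing higher against 29.2%, 29 (29.9%) called higher against 11.8% and 1 called lower against 16.7%. In DNMT WT, by contrast, 36 members (37.1%) passed lower against 24.6% of all genes and 5 were called in either direction against 16.6%. DNMT KO had 48 members (49.5%) passing lower against 24.9% and 6 called in either direction against 15.2%. A direct test of the difference between the parental responses called 32 members lower in DNMT WT than in TET WT, and 0 higher, against 10.3% of all genes called lower. At EpiLC D2 itself, 41 members were called lower in DNMT WT than in TET WT and 0 higher, against 10.2% of all genes called lower. The parental lines are separate lines, and line and culture cannot be told apart.

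The members called higher in both TET lines included small subunits of every complex. Cox7c, a common complex IV subunit, stood at 128.0, 111.3 and 129.7 RPKM in TET WT ESC and 367.5, 361.5 and 317.3 at EpiLC D2 (1.5, SE 0.15, limma adjusted p = 2.05e-08). In DNMT WT it had 73.9 and 82.4 RPKM and then 54.9, 78.7 and 93.8 (-0.08, adjusted p = 0.764), and the responses differed by -1.58 (SE 0.22, adjusted p = 7.46e-06). Atp5e, the epsilon subunit of the catalytic head, stood at 19.3, 17.3 and 19.7 RPKM in TET WT ESC and 65.8, 68.3 and 51.8 at EpiLC D2 (1.69). TET KO went from 33.5, 37.1 and 29.4 to 178.1, 152.6 and 199.2 RPKM (2.39), and DNMT WT had 17.7 and 16.1 and then 16.2, 20.3 and 21.8 (0.19, adjusted p = 0.328). Ndufb9, an accessory complex I subunit, rose by 1.04 in TET WT and by 1.22 in TET KO, with -0.23 in DNMT WT (adjusted p = 0.167). Called higher in both TET WT and TET KO were Atp5e, Atp5s, Cox14, Cox16, Cox7b2, Cox7c, Ndufa7, Ndufaf2, Ndufaf6, Ndufb2, Ndufb3, Ndufb8, Ndufb9, Uqcrh and Uqcrq. A minority of members moved the same way in every line. Atp5s was called higher in all 4, at 1.57 in TET WT and 1.18 in DNMT WT, whose responses did not pass a test of their difference (-0.39, adjusted p = 0.156). Cox5a, Atp5g1, Cox20, Cox6a1 and Uqcrc1 passed lower in all 4, Cox5a by -0.40 in TET WT, -0.66 in TET KO and -1.31 in DNMT WT. The shares of all genes meeting these combined rules at EpiLC D2 are not given here, so the overlaps are listed without a background.

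Transcript length moved with the EpiLC result in the TET lines. The members are short, with a median merged exon length of 1569 bases (419 to 8086) against 3913 over all genes tested. Among genes of at least 15.5 RPKM in TET WT, the 152 other genes under 1 kb had a median EpiLC D2 change of 0.74, the 498 of 1 to 2 kb 0.56, the 1141 of 2 to 4 kb 0.07 and the 1277 over 4 kb -0.38. The members' medians in these classes were 0.57, 0.49, 0.23 and 0.19 (19, 27, 16 and 5 genes), which is below the other genes in the 2 shorter classes. In TET KO the other genes ran from 0.86 to -0.65 and the members from 0.83 to -0.27. DNMT WT had no such gradient, with 0.05, 0.00, 0.09 and 0.12 for other genes and -0.36, -0.23, -0.28 and -0.21 for members. A trend over gene length and mean level together was then removed from each library. The members' median relative to all genes at EpiLC D2 of TET WT was 0.07 in place of 0.49. Cox14, Cox7c (0.90), Ndufaf6, Uqcrh and Uqcrq (1.0, just below the threshold) lost their calls. With the trend over length alone removed, the median moved by less than 0.2043 from 0.49. That limit is the pooled standard deviation of library medians within the groups compared. The parts of length and of mean level in the value of 0.07 were not tested.

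**Figure D5:**
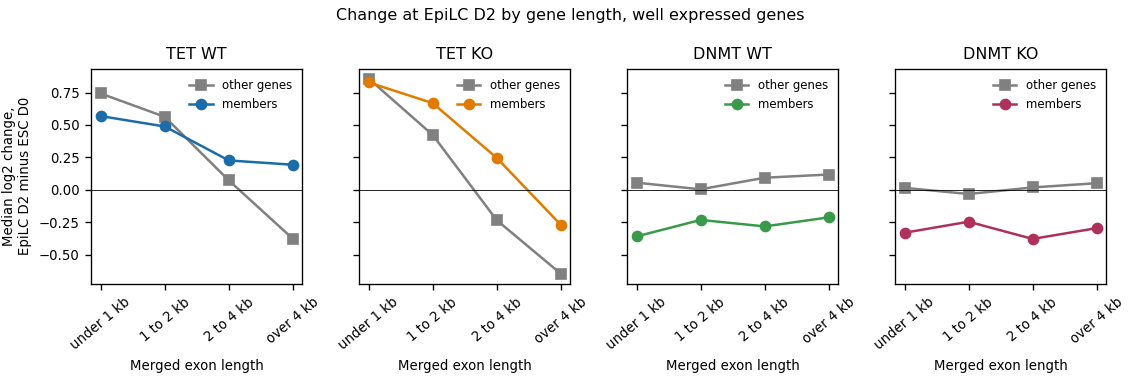
Median log2 change from ESC D0 to EpiLC D2 (vertical axis) of genes with a mean of at least 15.5 RPKM, by class of merged exon length (horizontal axis), for the members in colour and other genes in grey, in 1 panel for each line. The medians decline with length in both TET lines, for other genes from 0.74 to -0.38 in TET WT, and are nearly level in both DNMT lines, where the members lie below the other genes in each class.

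The comparisons of each knockout with its parental line asked whether the members depend on the TET enzymes or the DNA methyltransferases, and few members were called. TET KO against TET WT called 3 members at ESC D0 (6.78% of all genes were called), 6 at EpiLC D2 (7.9%), 2 at EB D4 (9.47%) and 3 at EB D8 (9.98%). DNMT KO against DNMT WT called 1 at ESC D0 (1.03%), 1 at EpiLC D2 (1.59%), 1 at EB D4 (5.82%) and 3 at EB D8 (18.9%). The single DNMT KO calls at the first 3 times were all Cox7b2, higher. At EB D8 those of DNMT KO were Cox7b2, Ndufa4l2 and Cox6a2, the last lower (-1.47, limma adjusted p = 0.000391, lost with a pseudocount of 1), and those of TET KO were Cox4i2, Ndufa4l2 (-1.30, lost with a pseudocount of 1) and Cox6b2 (-1.05, and -0.99 without TET WT EB D8 replicate 1), all lower. At EB D8 every call in both knockouts was thus a tissue isoform. Tests of the difference between knockout and parental responses from ESC D0 called 4 members for TET (13.2% of all genes) and 4 for DNMT (20.5%) at EB D8, and 2 for TET at EpiLC D2 (6.45%), Ndufaf6 and Cox7a1.

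At any size, most members differed between TET KO and TET WT at EpiLC D1, where 61 passed higher and 3 lower, against 22.3% of all genes higher. Length moved with this comparison too: among genes of at least 15.5 RPKM the medians of other genes were 0.26, 0.24, -0.03 and -0.25 from the shortest to the longest class, and those of members 0.40, 0.37, 0.18 and 0.13. At EpiLC D2 Atp5e had means of 176.6 RPKM in TET KO and 62.0 in TET WT (1.51, limma adjusted p = 1.12e-05), Ndufaf6, a complex I assembly factor, 76.2 and 32.3 (1.23), and Ndufa7, an accessory complex I subunit, 351 and 165 (1.10). Ndufaf1, another assembly factor of complex I, was already higher at ESC D0, with means of 24.5 and 11.8 RPKM (1.03, adjusted p = 5.57e-06), a call that was lost with centring (0.90), under quantile normalization, with a pseudocount of 1 or without TET WT ESC D0 replicate 3 (0.94). At EB D8 15 members passed higher in TET KO (37.7% of all genes did) and 22 lower (19.8%). Those that passed lower included Ndufa5 (-0.76), Ndufa9 (-0.56), Atp5h (-0.55) and Cox4i1 (-0.50), and Ndufs1 passed higher (0.68).

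Many ubiquitous subunits were moderately higher in DNMT KO than in DNMT WT embryoid bodies, as were well-expressed genes in general. At EB D8, 45 of 97 members passed higher (46.4%, against 33.7% of all genes) and 17 lower (17.5%, against 34.4%). Of the 71 ubiquitous subunits 35 passed higher and 10 lower, and of the 11 common complex IV subunits 8 passed higher. Atp5b had means of 386 RPKM in DNMT KO and 248 in DNMT WT (0.64, limma adjusted p = 5.63e-09), and Cox5a 59.3 and 35.0 (0.75). Ndufs8 and Uqcrq were higher by 0.64 and 0.63. Lower in DNMT KO were Cox20, an assembly factor of complex IV (-0.79), Ndufv3 (-0.63) and Ndufb11 (-0.56). Among genes of at least 15.5 RPKM the median difference was 0.16 for members and 0.12 for the other genes. The median over all members relative to all genes was 0.15, and it was -0.07 once the trend over length and level was removed, so the direction of this median depends on that choice.

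Other genes of mitochondrial energy metabolism give the setting of the fall at EB D8. Of 28 mitochondrial ribosomal protein genes, 24 passed lower in TET WT, 27 in TET KO, 25 in DNMT WT and 24 in DNMT KO. Of 18 tricarboxylic acid cycle genes 12, 16, 14 and 13 passed lower in the same order. Over all genes 35.7%, 33.1%, 34.7% and 30.1% passed lower. Of the 13 subunits encoded by mitochondrial DNA, 8, 8, 7 and 8 passed higher and 1, 0, 0 and 0 lower, with 5, 8, 1 and 5 called higher. Over all genes 20.3%, 18.4%, 23.3% and 16.8% were called higher. Of the 13, mt-Co2, mt-Atp8, mt-Atp6, mt-Co3, mt-Nd3 and mt-Nd4l were close to the floor, at 0.27 to 3.76 RPKM in TET WT ESC. For mt-Atp6 the means were 1.31 and 0.51 RPKM in TET WT (limma adjusted p = 0.238). The 1 that passed lower, mt-Nd3 (0.95 and 0.21 RPKM), is among them, so it does not show the fall of a well-measured RNA. Why these genes were so low beside mt-Co1 was not tested, and all counts and medians of the 13 include them. The medians of the 13 were 0.89 in TET WT, 1.25 in TET KO, 0.45 in DNMT WT and 0.72 in DNMT KO. The catalytic subunit mt-Co1 had means of 1030 and 3446 RPKM in TET WT (1.74). These RNAs carry short tails and were captured with oligo-dT, so their level may reflect tail length as well as amount, which was not tested. At EpiLC D2 of TET WT, where the nuclear members rose, 9 of the 13 were called lower (median -1.27), against 15.8% of all genes. In TET KO, where the nuclear members rose too, 0 of the 13 were called and 6 passed higher (median 0.47), against 29.2% of all genes passing higher. Among 22 glycolysis genes 9, 4, 12 and 16 were called higher at EB D8, against 20.3%, 18.4%, 23.3% and 16.8% of all genes. The TET KO count was near that share. Called lower were 2, 2, 1 and 1, against 12.4%, 9.67%, 14.4% and 6.92% of all genes. Slc2a1, the main glucose transporter, rose from 52.9 to 434 RPKM in TET WT (3.02) and from 15.5 to 415 in DNMT WT (4.71), and Slc16a3, a lactate exporter, from 5.44 to 65.5 in TET WT. Of 14 regulators of mitochondrial biogenesis, 3, 5, 3 and 1 passed higher and 9, 7, 9 and 6 lower at EB D8, beside the shares of all genes passing lower given above. The shares of all genes passing higher at any size are not given here, for these regulators or for the 13 subunits of mitochondrial DNA at EB D8. Gabpa, the ETS factor whose motif was searched, fell by 1.36 in TET WT and by 1.32 in DNMT WT. Esrrb, an orphan receptor of naive pluripotency that also acts on respiratory genes, fell by 5.67 in TET WT (123.5 to 1.95 RPKM) with a change of -6.04 in DNMT WT.

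The cell types in the embryoid bodies differed between lines at EB D8. The summed RPKM of 10 erythroid and globin markers was 8463 to 9077 in TET WT and 4592 to 4640 in DNMT WT, but 26.5 to 39.2 in TET KO and 129.5 to 156.8 in DNMT KO. All 10 were called lower in each knockout than in its parent. The summed level of the cardiac muscle markers was 54.9 to 68.7 RPKM in TET WT, 201 to 294 in TET KO, 156 to 228 in DNMT WT and 15.3 to 20.6 in DNMT KO. The naive pluripotency markers summed to 567 to 588 RPKM in DNMT KO, against 44.4 to 50.4 in DNMT WT, 60.2 to 62.0 in TET WT and 88.3 to 106 in TET KO. Of these 10 naive markers 7 were called higher in DNMT KO than in DNMT WT. The part of these cell types in the differences of Cox4i2, Ndufa4l2, Cox7b2 and the ubiquitous subunits at EB D8 was not tested.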

How the data were processed

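RNA was measured by strand-specific sequencing of oligo-dT selected, DNase-treated total RNA, per the labels' protocols. For the 79 libraries the authors deposited a single log2 RPKM table. Per the submitters' processing notes, Trim Galore 0.6.1 with cutadapt 1.18 and HISAT2 2.1.0 were used on GRCm38. The sources used here do not name the counting tool or gene annotation. Of 35269 rows, 35230 genes were kept, the row with the highest mean where an identifier had several.

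Low values step in whole reads (96.9% within 0.1 of a read up to 20 reads), which gave the depth of each library. Libraries had 7.77 to 13.89 M reads, and 1 read on a 1 kb gene is 0.1288 RPKM in the shallowest. A gene with no read is listed at a floor near 0.9 reads. Read numbers and floors cover counting error only.

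The 15267 genes that reached 1 RPKM in 2 or more libraries were tested with limma 3.58.1 in R 4.3.3 on log2(RPKM + 0.5), with trend and robust moderation and Benjamini-Hochberg adjustment over all of them. Fold changes are on that scale and understate the change of low genes. Comparisons between lines used all 4 genotypes at that condition, and comparisons with ESC D0 all 4 at both. On simulated data for the TET WT EB D8 comparison over 15267 genes, 98% of changes of 1.5 and 66% of changes of 0.5 (log2) passed. Named are members called in a comparison, the largest other changes, the highest member of each complex, isoform pairs and catalytic core subunits. Lengths are merged exons of GENCODE M21. Promoters are from RefSeq. Single values of 1 member are not reported here. The members and lists were chosen with earlier results of these data known. Alternatives were other pseudocounts, no filter, centring, quantile normalization, a replicate block, left-out libraries and, added after seeing the data, removal of trends over length and level. Tables used pandas 2.3.3 and Python 3.11.15, plots matplotlib 3.10.9.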

Additional observations from a re-analysis of the deposited data

Results flagged for a closer look

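These members responded differently between lines in a limma test of the difference of their log2 changes from ESC D0 (adjusted p under 0.05 and a difference of at least 1). At EpiLC D2, TET KO minus TET WT was 1.12 for Ndufaf6 and 1.66 for Cox7a1. At EB D8, TET KO minus TET WT was -4.62 for Cox4i2, 1.55 for Cox7b2, -1.69 for Cox6b2 and -2.87 for Ndufa4l2. The Cox7b2 value rests on a fall in TET WT and on TET KO ESC libraries with no read, and depends on the pseudocount. That of Ndufa4l2 rests on TET KO ESC libraries that disagreed, with 9 to 78 reads. At EB D8, DNMT KO minus DNMT WT was -1.12 for Cox4i2, 2.63 for Cox7b2, -1.56 for Cox6a2 and 2.29 for Ndufa4l2. Between the parental lines at EB D8, DNMT WT minus TET WT was 1.04 for Cox4i2, 1.10 for Atp5k, 1.92 for Cox6b2, 1.16 for Cox7a1, 1.24 for Cox6a2 and 2.30 for Ndufa4l2. The sizes for Cox4i2 and Ndufa4l2 in the DNMT lines and between the parental lines rest on DNMT ESC libraries with at most 3 reads and depend on the pseudocount, and at EB D8 Cox4i2 had 10.2 to 12.8 RPKM in DNMT WT and 13 to 14.2 in TET WT. The DNMT value of Cox7b2 rests on DNMT WT EB D8 libraries with 0 reads. Both Cox6a2 values rest on EB D8 libraries of DNMT KO or TET WT with at most 1 read. These sizes depend on the pseudocount too. At EpiLC D2 the same test called 32 members lower in DNMT WT than in TET WT.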

How the results depend on the processing

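The members' median relative to all genes at EB D8 stayed negative in all 4 lines under every alternative run, with sizes that depended on the scale. For TET WT, DNMT WT and TET KO it was -0.60, -0.49 and -0.77 without the filter on low values, -0.36, -0.33 and -0.63 (DNMT KO -0.30) under quantile normalization, -0.60, -0.42 and -0.75 with the length trend removed, and -0.27, -0.31 and -0.42 with the trend over length and level removed. TET WT was at -0.72 without assembly factors. At EpiLC D2 removal of both trends gave 0.065 in TET WT and -0.37 in DNMT WT. Centring gave 40 calls in TET WT, 34 in DNMT WT, 53 in TET KO and 20 in DNMT KO at EB D8, and 33 in TET WT at EpiLC D2. Calls were 15 in TET KO at EB D8 with both trends removed, 6 in DNMT KO at EB D8 under quantile normalization, and 11 in TET WT and 3 in DNMT WT at EpiLC D2 without assembly factors. Shares of all genes called under the alternatives of this section are not given, so these counts of calls are not read against a background.

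Of the knockout comparisons, the TET KO median without the filter was 0.14 for ESC D0, 0.26 for EB D4 and -0.033 for EB D8, that under quantile normalization 0.16 for ESC D0 and -0.038 for EB D8, and that with both trends removed 0.13 for EB D4. The DNMT KO median at EB D8 reversed from 0.15 to -0.070 with both trends removed. At EB D4 it was -0.11 with the length trend removed and between -0.076 and -0.0004 with 1 library left out, the last without DNMT WT replicate 2. TET KO calls at EB D4 were 0 with centring or either trend removed, 1 under quantile normalization, with a pseudocount of 1 or without assembly factors, and 1 to 4 with 1 library left out (4 without TET WT replicate 3). DNMT KO calls at EB D8 were 5 under quantile normalization or with the length trend removed, 6 with both trends removed, and 3 to 5 with 1 library left out (5 without DNMT WT replicate 3). They were 1 to 2 at ESC D0 (2 without DNMT WT replicate 2) and 1 to 2 at EB D4 (2 without DNMT WT replicate 2 or DNMT KO replicate 3). The cause of these shifts was not tested.

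For single members, 6392 alternative values kept their side of the threshold, 97 lost a call and 78 gained one. With the replicate number as a block, 28 summary values and 436 single values kept theirs, for example 18 calls and a median of -0.67 in TET WT at EB D8. Over 38 pairs of same-numbered groups the correlation of deviations was -0.222 to 0.289. With 2 or 3 libraries in a group this check is weak and cannot exclude that the numbers pair the samples. Groups of 2 libraries and isoforms of a few reads also limit precision.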
